A study of Rattus norvegicus with 2 samples.

Results

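The genes described here encode the proteins of the cytosolic ribosome, the particle that translates messenger RNA. They are the 81 genes, of 16846 gene symbols in the table, whose symbol follows the Rpl and Rps naming pattern, with Rpsa and the stalk genes Rplp0, Rplp1 and Rplp2 added and the S6 kinases left out. The large subunit has 49 of them and the small subunit 32. The rule itself reads symbols only. Poly(A) RNA was sequenced from cultures prepared as cardiomyocytes from the ventricles of neonatal rats at postnatal day 0. The anti-miR library came from cultures transduced for 7 days with adeno-associated virus (AAV2/9) that expressed shRNAs directed against miR-99/100 and let-7. The control library received an empty virus according to its treatment label and a mock transduction according to the protocol. The protocol reports high cardiomyocyte purity after the cells that attached early were removed. In both libraries cardiomyocyte markers were scarce and fibroblast markers abundant. There was 1 library per group, so every difference below compares these 2 libraries, has no replicate check and carries no test. An interval beside a ratio is an exact 95% counting interval and covers counting error only.

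Each ribosome holds 1 large subunit, which joins amino acids, and 1 small subunit, which reads the messenger. Both are built from ribosomal RNA and a set of small, mostly basic proteins that are needed in near-equal amounts. In mammals the messengers of these proteins start with a run of pyrimidines, the terminal oligopyrimidine (TOP) tract, through which the kinase mTOR controls their translation. MYC raises transcription of ribosomal components, and growing heart muscle cells make more ribosomes. Mammalian genomes also hold many processed pseudogenes of these genes, which are intronless copies of their messengers.

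The start site windows below give examples of pyrimidine runs in genes with many reads, in genes read in 1 library only and in genes with no read at all. Each runs from 10 bases before to 20 bases from the annotated start on, in RefSeq's rat build GRCr8, on the gene's strand, with the longest run of C and T in capitals. The first 3 belong to genes of the 5 highest levels per length, and the next 3 have the longest runs among well-counted genes.
Rplp0 (chr12:46718371-46718400, minus strand): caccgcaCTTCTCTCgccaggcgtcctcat
Rpl3 (chr7:113507971-113508000, minus strand): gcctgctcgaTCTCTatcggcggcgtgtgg
Rps6 (chr5:106420521-106420550, minus strand): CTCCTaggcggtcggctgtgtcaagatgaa
Rps23 (chr2:23814507-23814536, plus strand): ccttcctgCCTCTCTTCTCTCTTTCTCTCg
Rpl27a (chr1:172974563-172974592, plus strand): cttggtgggCTCCTCCCTCTTTCTTTTCTg
Rps24 (chr16:96507-96536, plus strand): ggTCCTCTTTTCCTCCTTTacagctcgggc
Of the 9 genes with reads in 1 library only, Rpl9, Rps10 and Rps14 are shown. The window of Rpl36, another of these genes, had a longest run of only 2 bases.
Rpl9 (chr14:43247580-43247609, plus strand): aggacgTTCTCTCTTTgccccatctactgc
Rps10 (chr20:5700725-5700754, minus strand): gcacgCCCCTTCCTTTCCagcctccgcctc
Rps14 (chr18:56498250-56498279, plus strand): ccgTCTCTCTCTTTCCggtggaggagtctg
Of the genes with no read in either library, Rpl38, Rps13 and Rps28 are shown. Among the others, Rpl39l had a longest run of 4 bases. Rpl3l had one of 9 bases that began only at base 10 from the start. Of the runs shown, that of Rpl38 began at base −10 and ended before the start, and that of Rps28 began at base 5.
Rpl38 (chr10:100200425-100200454, plus strand): TTCTTTTTCCgttgttcggtgctcgctcct
Rps13 (chr1:180009641-180009670, minus strand): ttcctacctcgTTCTCTCTTTgcttccaga
Rps28 (chr7:15311314-15311343, minus strand): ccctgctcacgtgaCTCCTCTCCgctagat

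A single window was listed for 64 of the 81 genes, and its longest pyrimidine run had a median of 9 bases. Over 17541 protein-coding genes with a single window the median was 4 bases, and over 58 mitochondrial ribosomal protein genes it was also 4. A run of at least 8 bases stood in 62.5% of the ribosomal protein windows, against 9.73% of all protein-coding windows and 6.90% of the mitochondrial ones. Only the coding strand was searched, and a run counted wherever it lay in the window, before or after the start. Such runs were found in every class of reads: 60.5% of well-counted genes, 61.9% of genes with few reads and 4 of 5 genes at 0 reads held one. A run is a match of letters and was not tested as a working TOP element.

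Reads were spread very unevenly over the 81 genes. At least 100 reads in each library were found for 49 genes, fewer for 26, and none in either library for 6. These 49 held 158175 of 158820 ribosomal protein reads in the anti-miR library and 144856 of 145358 in the control. The most abundant was Rplp0, the base of the stalk that recruits translation factors, with 23952 reads in the anti-miR library and 21686 in the control. At the other end, the 26 genes with few reads held 645 reads in all in the anti-miR library and 502 in the control. Genes at 0 reads in both libraries made up 7.41% of the ribosomal protein genes and 31.0% of all genes, and genes with at least 100 reads in each made up 60.5% and 49.4%. Mitochondrial ribosomal protein genes had 0 of 68 at 0 reads and 64 with at least 100 reads in each library.

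**Figure D1:**
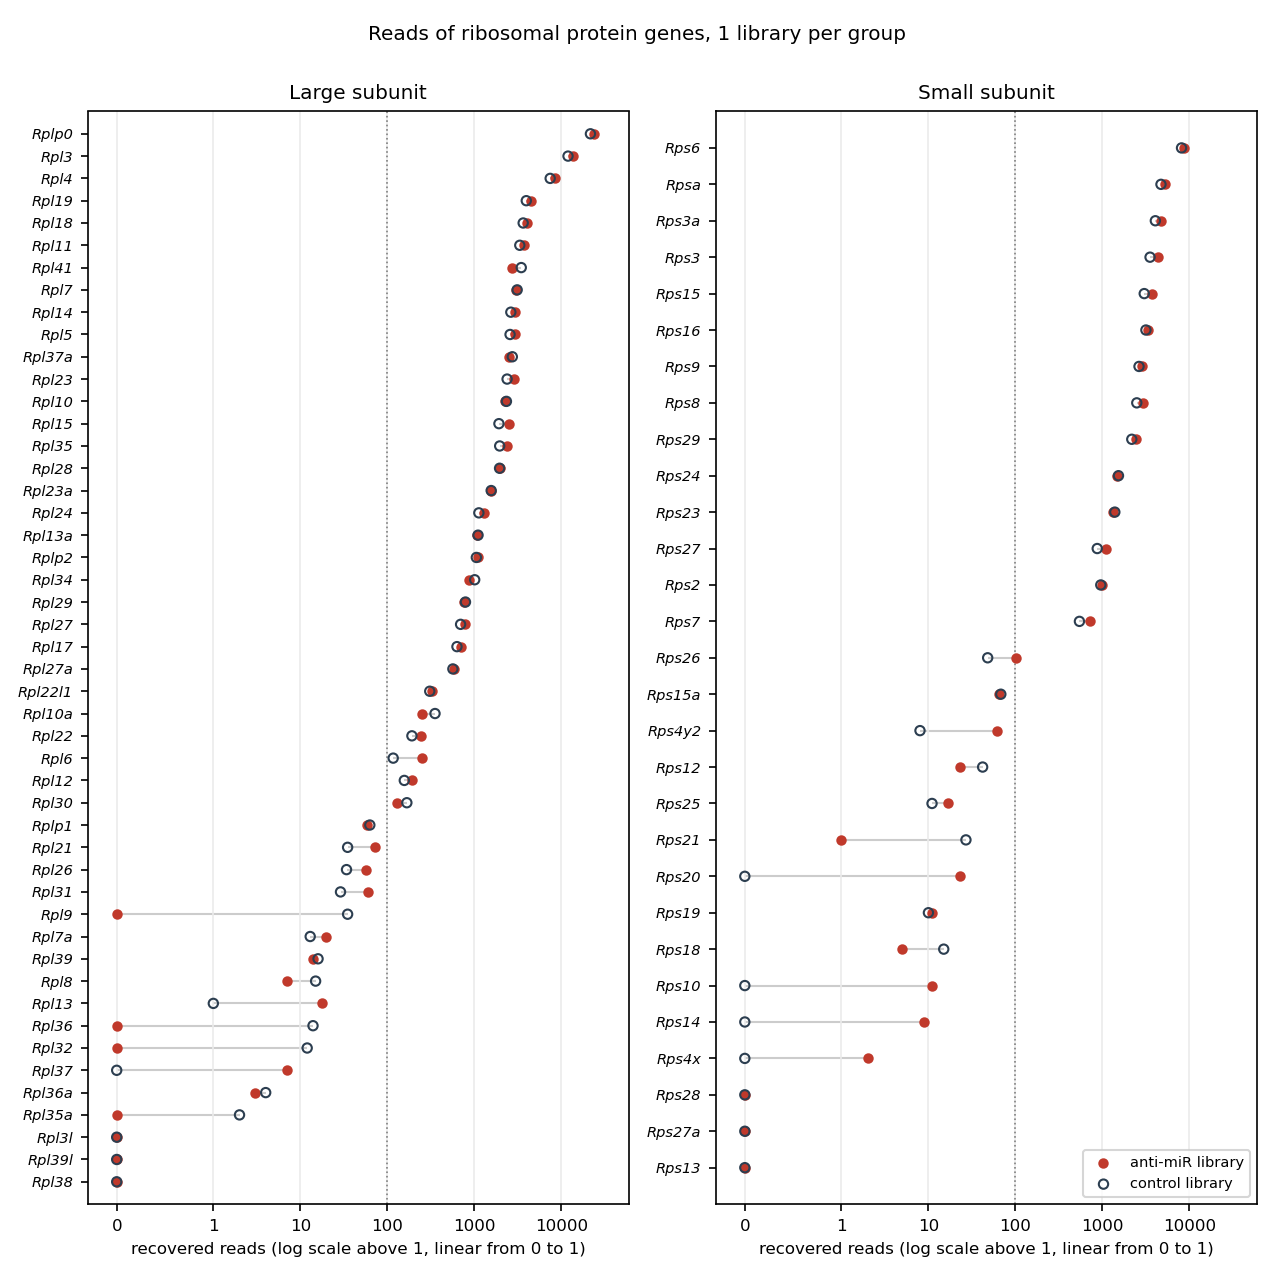
Recovered reads of the ribosomal protein genes reported singly (horizontal axis, logarithmic above 1) in the anti-miR library (filled) and the control library (open), by subunit, with a dotted line at 100 reads. Right of the line the points of a gene lie close together, except for Rpl6 with 251 reads in the anti-miR library and 117 in the control, while many of the 26 genes left of it have points far apart and 6 stand at 0 in both.

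The 6 genes at 0 reads were Rpl38, Rpl3l and Rpl39l of the large subunit and Rps13, Rps27a and Rps28 of the small one. A count of 0 allows up to 0.202 RPM (reads scaled to 1000000 reads on genes) in the anti-miR library and 0.187 RPM in the control. Rpl3l, the muscle counterpart of Rpl3, and Rpl39l are paralogs of restricted expression. Rpl38, the gene of the Tail short mouse, is known for its part in translation of Hox messengers, and Rps27a is made as a fusion with ubiquitin. Several other core genes had almost no reads. Rps19, the first gene found mutated in Diamond-Blackfan anaemia, had 11 reads in the anti-miR library and 10 in the control. Rps4x, the X-linked gene of an essential small-subunit protein, had 2 and 0 reads, and Rpl36a had 3 and 4. Rpl8, of a protein next to the catalytic centre, had 7 reads in the anti-miR library and 15 in the control, and Rps18 had 5 and 15.

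Annotated length and the number of pseudogenes overlapped widely between the classes of reads. Genes with at least 100 reads had a median transcript length of 644 bases, those with few reads 509 and those at 0 reads 511. RefSeq lists 898 pseudogene records named after the 81 genes. The median per gene was 12 records for well-counted genes, 11 for genes with few reads and 6 for genes at 0 reads. Records named with the gene's symbol followed by l, with or without a number, had medians of 1, 3.5 and 0.5 in that order. Rps2, with the most records, 36, had 998 reads in the anti-miR library and 959 in the control. Rps27a, with 29 records, had 0 reads in both, as did Rps28, with 5 records. Rpl9, with 27 records, had 0 reads in the anti-miR library and 35 in the control. Across the 81 genes Spearman's rho between pseudogene records and reads was 0.12, and between transcript length and reads 0.35; both describe genes that share the same libraries. The treatment of reads that match several places was not given in the sources used, and the part that near-identical copies play in these counts was not tested. The levels of all 81 genes are uncertain to that extent.

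Some rows lie at places other than the band listed for the gene. Of 79 genes with a listed band, 5 had a row elsewhere: Rpl7a, Rpl32, Rpl35a and Rpl37a on another chromosome, and Rpl36 on unplaced sequence. The Rpl32 row on build rn4 is at chr6:145183241-145183709, a span of 469 bases for a transcript of 438, and the listed band is on chromosome 4. This row is listed with 3 copies and overlaps the row of another gene, Cdca7l, on the same strand. Its 0 reads in the anti-miR library and 12 in the control are of uncertain origin. Rpl37a, listed on chromosome 9, has its row at chr5:146450567-146450926, is listed with 2 copies and overlaps the row of a pseudogene, Rpl37a-ps1. Its 2497 reads in the anti-miR library and 2741 in the control are therefore of uncertain origin. Rps4y2, on chromosome 4, spans 934 bases for a transcript of 931 bases, as an intronless gene does. The accession of the row named Rpl37 belongs to Rpl37l1 in the RefSeq table used here, and that of Rpl39l to Rpl39l1.

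**Figure D2:**
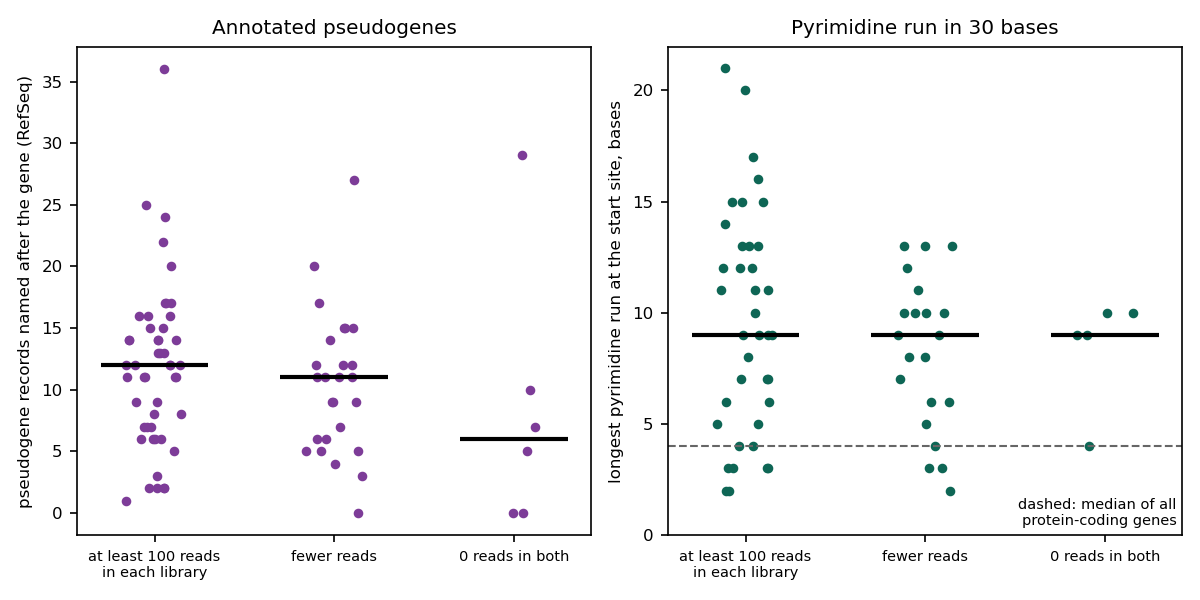
Left, RefSeq pseudogene records named after each ribosomal protein gene; right, longest pyrimidine run in bases within 30 bases at its start site; each point is a gene and each line a median, by class of reads. Pseudogene medians are 12, 11 and 6 records from well-counted genes to genes at 0 reads, and all 3 median runs are 9 bases, above the dashed median of 4 over all protein-coding genes.

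Levels of the well-counted genes per length differed widely, although their proteins are needed in near-equal amounts. Per kb of transcript, the 49 genes had a median of 220 RPM in the anti-miR library and 208 RPM in the control. The range was 83-fold in the anti-miR library, against 158-fold in the control. Small-subunit genes had a median of 290 RPM per kb in the anti-miR library and 243 in the control, and large-subunit genes had 181 and 154. Rplp0 was highest at 1493 RPM per kb in the anti-miR library and 1249 in the control. Among other high levels was that of Rps6, the protein that S6 kinase phosphorylates in response to mTOR, with 740 RPM per kb in the anti-miR library and 639 in the control. Rpl3, which lies close to the catalytic centre, had 714 and 584. Rpl37a, Rps29, Rpl41 and Rps15 had at least 422 RPM per kb in the anti-miR library and at least 389 in the control. The lowest well-counted genes were Rpl12, with 18.0 RPM per kb in the anti-miR library and 13.7 in the control, Rpl6, with 18.3 and 7.90, and Rpl30, with 18.9 and 22.9.

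As a group the ribosomal protein genes were slightly higher in the anti-miR library. Together they took 1.07% of its reads (95% interval 1.07 to 1.08) and 0.907% of control reads (0.902 to 0.911), a ratio of 1.18 (1.17 to 1.19). Without Rplp0 the ratio was also 1.18. The median log2 ratio over the 49 well-counted genes was 0.26, or 1.19-fold, against 0.02 over all 8319 genes with at least 100 reads in each library. Of the 49 genes, 43 had a ratio above 1 and 6 below; 53.5% of all well-counted genes were above 1. In 34 of the 49 the ratio lay between 1 and 1.3. The log2 quartiles were 0.12 and 0.30 over the 49, against −0.17 and 0.23 over all well-counted genes. The counting interval lay above 1 for 35 of 49 genes and below 1 for 2, against 33.8% and 27.8% of all well-counted genes. Intervals that leave out 1 were thus common in these libraries. An interval also narrows as reads increase. Per kb of transcript, the 49 genes had a median of 220 RPM in the anti-miR library, against 18.5 over all well-counted genes. The part of read number in these shares was not tested. In bulk RNA, more cells rich in these messengers and more messenger per cell cannot be told apart.

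The subunits moved by about the same amount. The median log2 ratio was 0.26 over 32 well-counted large-subunit genes and 0.23 over 17 small-subunit genes, 0.03 apart. Summed reads gave a ratio of 1.18 (1.16 to 1.19) for the large subunit and 1.19 (1.18 to 1.21) for the small one. Log2 ratios of large-subunit genes ran from −0.37 to 1.20, and the highest of the small-subunit genes was 0.50. Genes with a pyrimidine run of at least 8 bases had a median of 0.21 (23 genes) and those with a shorter run 0.27 (15 genes).

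**Figure D3:**
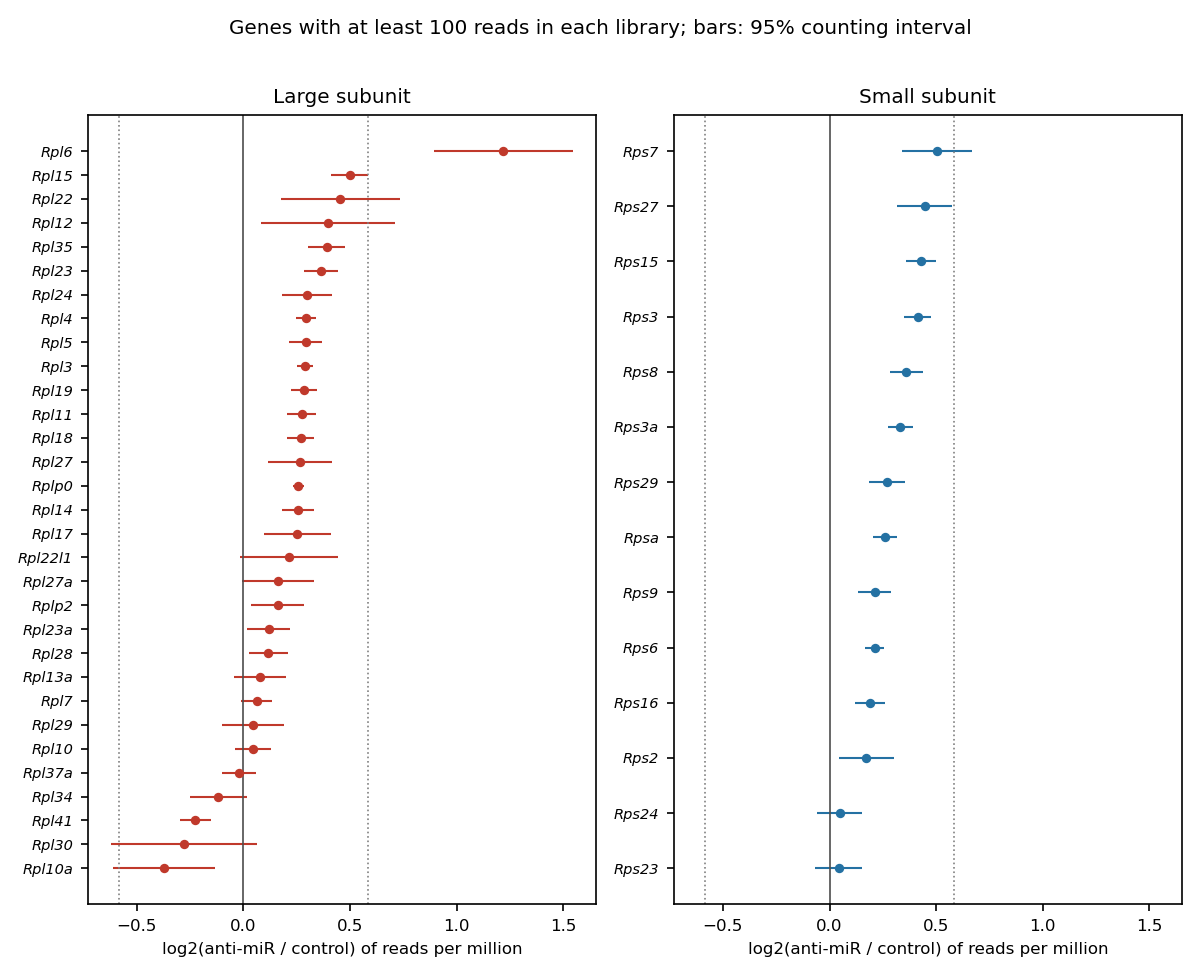
Log2 ratio of RPM, anti-miR over control, for the genes reported singly with at least 100 reads in each library, by subunit, with 95% counting intervals; dotted lines mark 1.5-fold. Most points lie between 0 and 0.5 in both subunits, Rpl6 stands alone at the right, and Rpl10a is lowest.

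The factor-binding stalk belongs to the large subunit. Its gene Rplp0 had 1617 RPM in the anti-miR library and 1353 in the control, a ratio of 1.20 (1.17 to 1.22). Rplp2, of an acidic protein that hangs from it, had 73.8 and 66.0 RPM, a ratio of 1.12 (1.03 to 1.22). Its partner Rplp1 had only 58 reads in the anti-miR library and 63 in the control. Rpl12, at the stalk's base, had 191 and 157 reads, a ratio of 1.32 (1.06 to 1.64).

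Other genes encode proteins of the catalytic core and the exit tunnel. Rpl3 had 913 RPM in the anti-miR library and 747 in the control, a ratio of 1.22 (1.19 to 1.25), and Rpl4, which lines the tunnel, had 571 and 466 RPM, a ratio of 1.23 (1.19 to 1.26). Rpl10, a late-joining protein near the transfer RNA sites, differed less, with 151 RPM in the anti-miR library and 146 in the control and a ratio of 1.03 (0.973 to 1.09). Where the signal recognition particle docks, at the tunnel's mouth, Rpl35 had 160 and 122 RPM, a ratio of 1.31 (1.23 to 1.39). Its neighbour there, Rpl23a, had 106 RPM in the anti-miR library and 97.7 in the control, a ratio of 1.09 (1.01 to 1.16). Rpl5 and Rpl11, which bind the smallest ribosomal RNA and, when free, the p53 regulator Mdm2, had ratios of 1.22 (1.16 to 1.29) and 1.21 (1.15 to 1.27). Mdm2 itself had 90.8 RPM in the anti-miR library and 110 in the control.

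Rpl6 was the one well-counted gene past 1.5-fold, a limit that 5.61% of all well-counted genes passed upward and 3.61% downward. It had 251 reads in the anti-miR library and 117 in the control, that is 16.9 and 7.30 RPM, a ratio of 2.32 (1.86 to 2.92). Rpl6, a surface protein of the large subunit, was also among the 3 lowest well-counted genes per length. The rn4 row lies at chr12:36483874-36487420 on the minus strand. After Rpl6 the highest large-subunit ratios were those of Rpl15, at 1.41 with 169 RPM in the anti-miR library and 120 in the control, and of Rpl22, at 1.37 (1.13 to 1.66) with 243 and 192 reads.

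The large subunit also held the genes that were lower. Rpl10a, of the mobile stalk beside the exit site for transfer RNA, had 253 reads in the anti-miR library and 354 in the control, a ratio of 0.773 (0.655 to 0.911). Rpl41, which encodes a very small peptide at the subunit interface, had 185 RPM in the anti-miR library and 217 in the control, a ratio of 0.855 (0.813 to 0.899). These were the 2 genes whose interval lay below 1. Rpl30, which in yeast controls splicing of its own transcript, had 128 and 168 reads, and its interval, 0.650 to 1.04, included 1. Rpl34 and Rpl37a had ratios of 0.922 and 0.986, and both intervals included 1.

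In the small subunit, several genes encode proteins along the path of the messenger. Rps3, at the messenger's entry, had 294 RPM in the anti-miR library and 221 in the control, a ratio of 1.33 (1.27 to 1.39). Rps15, close to the decoding site, had 255 and 189 RPM, a ratio of 1.35 (1.28 to 1.41). Rps23, in the decoding centre itself, had 89.4 RPM in the anti-miR library and 86.8 in the control, and its interval, 0.955 to 1.11, included 1. The highest ratio was that of Rps7, a binder of Mdm2 when free, with 48.2 and 34.0 RPM and a ratio of 1.42 (1.27 to 1.59). Rps27 followed at 1.36 (1.25 to 1.49).

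Rps6 had 587 RPM in the anti-miR library and 507 in the control, a ratio of 1.16 (1.12 to 1.19). Rpsa, also known as a laminin receptor, had 353 RPM in the anti-miR library and 294 in the control, a ratio of 1.20 (1.15 to 1.25). Rps29 stood at 1.21 (1.14 to 1.28). Rps24, mutated in some patients with Diamond-Blackfan anaemia, had 98.7 RPM in the anti-miR library and 95.6 in the control, and its interval, 0.961 to 1.11, included 1.

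**Figure D4:**
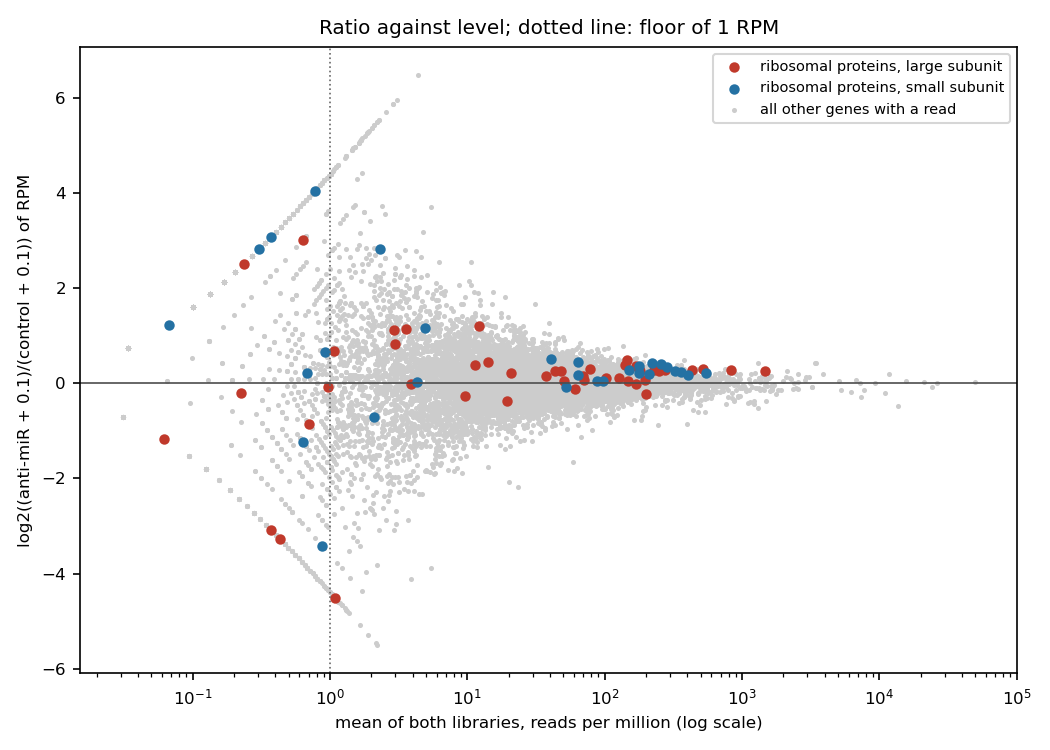
Log2 ratio (vertical axis, pseudocount 0.1 RPM) against the mean level of both libraries in RPM (logarithmic axis) for every gene with a read; ribosomal protein genes are coloured by subunit and the dotted line marks 1 RPM. Abundant ribosomal protein genes lie just above 0, and those with few reads fan out in both directions, as other genes of their level do.

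The genes with few reads gave wide and contrary ratios. Of the 26, 10 had an interval above 1, 4 below 1 and 12 across it, against backgrounds of 33.1% above and 25.9% below among 3311 genes with reads but under 100 in a library. Read in 1 library only were 9 genes, 5 in the anti-miR library and 4 in the control. Genes read in 1 library only also occurred outside this group. Of all 16846 genes, 11367 had a read in the anti-miR library, 10908 in the control and 5216 in neither. Rps20 had 23 reads in the anti-miR library and 0 in the control, at least 8.30-fold higher when 3 reads are allowed for the control. Rpl9 had 0 reads in the anti-miR library and 35 in the control, at least 10.8-fold lower by the same limit. Rps21, with 1 and 27 reads, and Rpl13, with 18 and 1, differed as much in opposite directions, at ratios of 0.0401 (0.000979 to 0.243) and 19.5 (3.08 to 812). Rps10, Rps14 and Rpl37 had 11, 9 and 7 reads in the anti-miR library and 0 in the control. Rpl36 and Rpl32 had 0 reads in the anti-miR library and 14 and 12 in the control, where the origin of the Rpl32 reads is uncertain.

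Above a mean of 1 RPM lay 10 of the 26, and with the 49 well-counted genes they make 59. Of these 59, 50 had a log2 ratio above 0, against 53.3% of all 10365 genes at that level. Among the 59, 7 were at least 1.5-fold higher and 2 at least 1.5-fold lower, against 11.0% and 8.67% of all those genes. The 7 were Rpl6 and 6 genes with few reads: Rpl7a, Rpl21, Rpl26, Rpl31, Rps26 and Rps4y2. Rps26, of a protein at the messenger's exit, had 101 reads in the anti-miR library and 48 in the control, just short of the limit for well-counted genes, a ratio of 2.28 (1.60 to 3.28). Rpl21 had 73 and 35 reads, Rpl31 60 and 29, and Rpl26 57 and 34. Rps4y2 had 61 reads in the anti-miR library and 8 in the control, a ratio of 8.25 (3.93 to 20.0). The intervals of Rpl21, Rpl26 and Rpl31 lay above 1, while that of Rpl7a, 0.788 to 3.64, included 1. Rps12, with 23 and 42 reads and an interval of 0.340 to 1.01 that included 1, and Rpl9 were the 2 lower genes; Rpl7a, Rpl9 and Rps4y2 reached 1 RPM in 1 library only.

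Paralogs could be set beside their parent genes in a few cases. Rpl22 and its paralog Rpl22l1 were near each other per length, with 36.6 RPM per kb in the anti-miR library and 26.7 in the control for Rpl22, and 39.9 and 34.4 for Rpl22l1. The ratio of Rpl22l1 was 1.16 (0.990 to 1.36). Rpl3l had no read in either library beside the 13522 anti-miR and 11977 control reads of Rpl3, and Rpl39l had none beside 14 and 16 of Rpl39. The paralogs Rpl36al and Rps27l, outside the naming pattern, had ratios of 0.942 (0.856 to 1.04) and 0.916 (0.851 to 0.986). Rpl36al had 803 reads in the anti-miR library and 922 in the control, far more than the 3 and 4 of its parent Rpl36a.

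Of 5 ribosomal parts outside the naming pattern, 3 had a ratio above 1 and 2, Rpl36al and Rps27l, below. Gnb2l1, the scaffold protein RACK1, had 553 RPM in the anti-miR library and 463 in the control, a ratio of 1.19 (1.16 to 1.23). Fau, a small-subunit protein made as a fusion with a ubiquitin-like domain, had 30.1 RPM in the anti-miR library and 23.5 in the control. Its ratio was 1.28 (1.12 to 1.48). Of 14 translation factors and other genes known for a TOP tract, 13 were above 1 and 1 below, with a median log2 ratio of 0.13, and the interval lay above 1 for 9 and below 1 for 0, against 53.5% with a ratio above 1 and 33.8% and 27.8% with such intervals among all well-counted genes. Eif3e, a subunit of an initiation factor, was highest at 1.29 (1.21 to 1.39) and Hnrnpa1, an RNA-binding protein, lowest at 0.933 (0.824 to 1.06). Eef2, the elongation factor that moves the ribosome along, had 2344 RPM in the anti-miR library and 1952 in the control.

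Mitochondrial ribosomal protein genes did not share the direction. Over the 64 well-counted ones the median log2 ratio was 0.01, with 32 above and 32 below, and the summed reads of all 68 had a ratio of 1.01 (0.993 to 1.03). Mrps9 was highest at 0.89 on the log2 scale; over all 68 the lowest was Mrps28, at −2.51, with 8 reads in the anti-miR library and 57 in the control. Regulators of ribosome production on the mTOR and MYC list had a median of 0.05 over 16 genes. Myc was highest, with 44.7 RPM in the anti-miR library and 27.0 in the control, a ratio of 1.66 (1.47 to 1.87), and its partner Max was lowest at 0.692 (0.538 to 0.886). Mtor had 74.6 and 76.1 RPM, a ratio of 0.981 (0.903 to 1.06). Tsc1, which restrains mTOR, had 27.7 RPM in the anti-miR library and 17.9 in the control. The list of handlers and partners of ribosomal proteins had a median of −0.01 over 12 genes, from Rrs1 at −0.41 to Bccip at 0.71. This list includes the p53 regulator Mdm2, at −0.28, and Mdm4, at −0.30.

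**Figure D5:**
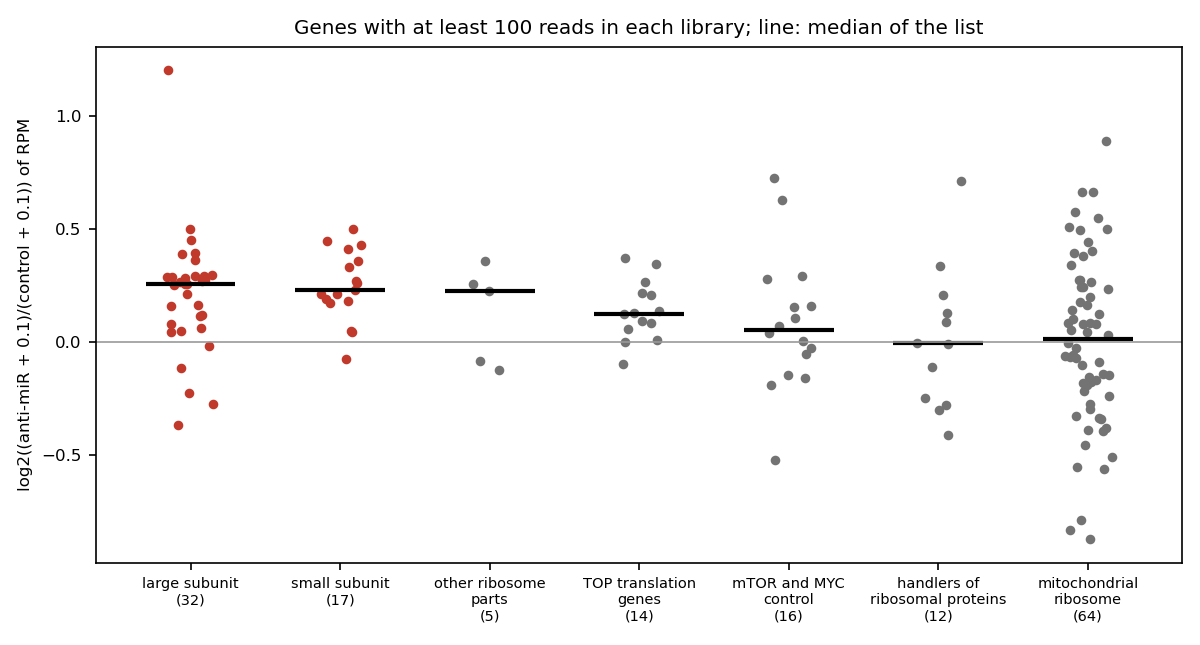
Log2 ratio (pseudocount 0.1 RPM) of genes with at least 100 reads in each library, anti-miR over control, for both subunits and 5 further lists; each point is a gene, each bar the median, and the number of genes stands under each name. Medians are 0.26 and 0.23 for the subunits and fall to 0.13 for TOP translation genes and 0.01 for the mitochondrial ribosome.

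The anti-miR library held 14815846 reads on genes and the control 16031780. Markers of cardiomyocytes were scarce, with 287 RPM in all in the anti-miR library and 251 in the control over 12 genes, while 10 fibroblast markers summed to 106556 and 104782 RPM. Leukocyte markers came to 6851 RPM in the anti-miR library and 6148 in the control over 9 genes, of which Cd163 was at 0, and 4 smooth muscle markers to 986 and 977. Endothelial markers came to 56.2 RPM in the anti-miR library and 31.1 in the control, and erythroid markers to 0.337 and 4.12, with Hbb and Alas2 at 0 in both. The part of these differences in the ribosomal protein ratios was not tested.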

How the data were processed

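The values deposited by the authors are a signal, namely scaled reads for each gene. HOMER made the table, per the file headers: exonic reads on antisense-strand orientation (rn4), unadjusted totals, transcripts condensed to genes. The submitters' processing notes also name STAR 2.2.0c and CASAVA 1.8.2, with no roles. Column sums are nearly equal, which unadjusted reads would not give; how they were scaled was not given in the sources used. The transcript lengths and copy numbers, in bases and in whole copies, are those of the deposited table.

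Whole reads were recovered: 100% of values up to 400 reads were whole multiples of 0.962 (control) or 1.04 (anti-miR) within 0.01 deposited units. The table has 16847 rows for 16846 symbols; of the duplicated symbol, the row with more reads was kept. RPM is reads per 1000000 reads on genes. Log2 ratios use a pseudocount of 0.1 RPM, and ratios of reads carry exact Clopper-Pearson 95% intervals, tested on simulated data. These cover counting error only, as do limits of 3 reads for a count of 0. With 1 library per group there is no test. RefSeq names and windows (GRCr8) were matched by accession for 79 genes and by symbol for 2; no coordinate was converted. TMM and median-of-ratios factors came from edgeR 4.0.16 and DESeq2 1.42.0 and served as alternatives only. The genes, lists and rules were chosen with earlier results of these data known. Named with values were, in each subunit, the 5 highest levels per length, the 3 highest and lowest ratios, genes past 1.5-fold above 1 RPM, genes read in 1 library and a set of well-known members; Rpl4, Rpl12, Rpl23a, Rpl34, Rpl35, Rplp2, Rps3, Rps24 and others described by role were added after their values were seen. Some genes that this rule names are not reported here singly; they stay in every count, sum and median.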

Additional observations from a re-analysis of the deposited data

How the results depend on the processing

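The median log2 ratio of the ribosomal protein genes lay between 0.23 and 0.26 under every scaling, pseudocount, level minimum and choice of members tried. The large minus small difference of 0.03 lay between −0.01, with no level minimum, and 0.04. The summed ratio of 1.18 became 1.16 with median-of-ratios factors and 1.16 with TMM. Counts past 1.5-fold depended on the level minimum. Among ribosomal protein genes, 7 higher became 1 with a minimum of 10 RPM, 14 with no minimum, and 1 with at least 100 reads in each library, a choice made after seeing the data. The 2 lower became 0, 8 and 0 under these settings and 1 with a pseudocount of 1 RPM. A counting interval, which is not adjusted, lay above 1 for 40 of 59 ribosomal protein genes and below 1 for 3. The adjusted binomial test below called 67.8% of these 59 genes higher and 5.08% lower, against 31.5% and 26.2% of all 10365 genes. Such calls also depend on read number, which was not matched between these sets of genes. Over all genes, 2034 past 1.5-fold became 720, 3207 and 767 under the same 3 minimums. An exact binomial test on recovered reads, adjusted by Benjamini-Hochberg at 0.05, called 5975 of 10365 genes; it compares these 2 libraries, not the conditions. Counting fewer than 10 reads in all as absent gave 11 genes in place of 6. Of 90 further values for 30 single genes, 88 stayed within their counting interval, and the log2 ratios of Rpl9 and Rps4y2 moved to −1.67 and 1.77 with a pseudocount of 1 RPM. Placing Rpl9 at its limit of 3 reads left the median at 0.26. No paired analysis was possible because there is 1 library per group.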
